A study of Mus musculus with 32 samples.

Results

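The comparison set late 2-cell mouse embryos of a mixed B6/DBA background against late 2-cell embryos of a B6 background, in total RNA. B6 and DBA are inbred laboratory strains. Its members were 8 of the 32 RNA sequencing libraries of the series: the 4 total RNA libraries of the Dppa2 arm at 28 hours post fertilization, which are labelled B6/DBA mixed, and the 4 of the Dppa4 arm at the same time, which are labelled B6. Each arm held 2 control libraries (m+z+, with the gene present in mother and embryo) and 2 libraries of embryos whose mother lacked the gene but which carry a working paternal copy (m-z+). The polyA libraries used below also include wild-type embryos and m-z- embryos of both arms, which have no working gene in mother or embryo. The study compared transcript levels of wild-type and mutant 1-cell and 2-cell embryos for Dppa2 and Dppa4. No treatment is named for any group. The sources used here do not give the kind of mutation, how many embryos went into a total RNA library or how many mothers they came from. Background and mutant line are the same split of these libraries, so a difference between the arms cannot be told apart from a difference between the Dppa2 and Dppa4 lines, or between separate collections of embryos. Nothing in the labels ties replicates to separate mothers or litters, and p-values measure the spread between these libraries only, which may be technical.

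In a fertilized mouse egg the first proteins are made from RNA stored in the oocyte. During the 2-cell stage most of that maternal RNA is degraded while the embryo's own genome is switched on, starting with a burst of 2-cell genes and going on to genes for ribosomes, splicing and energy metabolism. An embryo that is further along therefore holds more of the activated and less of the maternal transcripts. Inbred strains can also carry alleles of single genes that differ in expression, and such a difference need not depend on the stage.

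Summed FPKM (fragments scaled by gene length and by library size, as deposited) ran from 510860 to 629583 in the mixed and from 509724 to 560246 in the B6 libraries, and 11994 to 13071 genes reached 1 FPKM in a library. The depth of each library is unknown, since no counts are given. On log2(FPKM + 1), libraries of the mixed arm correlated with each other at r from 0.919 to 0.942, B6 libraries at 0.949 to 0.963, and libraries of different arms at 0.882 to 0.942 (across 13951 genes that share the libraries). As a check of the labels at the 1-cell stage, mixed-arm controls held 32.3 and 32.7 FPKM of Dppa2 and their m-z+ counterparts 9.38 and 9.52. B6-arm controls held 4.37 and 6.92 FPKM of Dppa4, and their m-z+ counterparts 1.13 and 0. At the 2-cell stage both genes were expressed in all 8 libraries. The sum over 13 structural noncoding RNAs was 78100 to 127000 FPKM in the mixed and 58500 to 83600 FPKM in the B6 libraries. These RNAs enter the FPKM denominator, and their part in the differences below was not tested.

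At the 2-cell stage 1003 of 13951 genes (7.19%) differed between the backgrounds with maternal genotype as a covariate (limma, Benjamini-Hochberg adjusted p under 0.05). Of these 565 were higher in mixed embryos (4.05% of genes tested) and 438 were lower (3.14%). The difference was at least 1 in size on the log2 scale for 545 of them. The 4 mixed and 4 B6 values did not overlap at all for 2564 genes (18.4%). Scaling changed the balance of directions: 56.3% of calls were higher in mixed embryos with FPKM as deposited, 35.7% with TPM scaling (283 higher, 509 lower) and 45% with median-ratio scaling (506 higher, 618 lower). The median of all genes moved from 0.07 to -0.05 and -0.01. Leaving out the mixed m+z+ replicates 1 or 2 or m-z+ replicate 2 left 247, 366 or 295 calls, and leaving out the B6 m+z+ replicate 2 or m-z+ replicates 1 or 2 left 193, 123 or 256. The number of calls therefore rests on single libraries, and it was 3191 when all 16 total RNA libraries shared 1 spread and 76 with no filter on low values.

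Controls taken alone showed the difference with little power. Among m+z+ embryos 25 genes passed (0.179%), 10 higher and 15 lower in the mixed background, and among m-z+ embryos 23 passed (0.165%), 11 higher and 12 lower. All 25 genes of the controls had the same sign in m-z+ embryos, and 13 passed in both, 52% of the first list and 56.5% of the second. Both contrasts came from 1 fit in which all groups share 1 spread per gene. Passing in both is therefore not independent, although the means come from different libraries. Among all genes 71.4% of 13938 had the same sign in both genotypes. Those 13 included Extl1, Mamdc2 and Tceal8 among the higher and C87977, Ccdc3, Manba and Mfap2 among the lower genes. No gene passed for a background difference that depended on maternal genotype (0 in limma, 395 at an unadjusted p under 0.05), and 2 or 3 passed without a mixed m-z+ library. The control count was 4 without mixed m+z+ replicate 2, 5, 6 and 14 without B6 m+z+ replicate 2 and B6 m-z+ replicates 1 and 2, and 117 without B6 m+z+ replicate 1. The m-z+ count was 15 without mixed m+z+ replicate 1, 2 without either mixed m-z+ library and 0 without either B6 m-z+ library, where 1 sample of that group is assumed to vary like the others.

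Some differences were close to on or off in total RNA. Extl1, an exostosin-like glycosyltransferase gene (chromosome 4, 134356372 to 134383850, minus strand, mm10), measured 8.68, 9.18, 12.2 and 6.71 FPKM in the mixed libraries (m+z+ replicates 1 and 2, then m-z+ replicates 1 and 2) and 0.0539, 0.31, 0.136 and 0.265 FPKM in the B6 libraries in the same order. Every mixed library lay far above every B6 library, and the log2 difference was 3.08 (SE 0.25, limma adjusted p = 0.000314). Mamdc2, which codes for a MAM-domain proteoglycan, had 4.75, 8.19, 7.21 and 7.76 against 0.0581, 0, 0.116 and 0 FPKM (difference of 2.91 on the log2 scale, SE 0.24, limma adjusted p = 0.000314). Tceal8, an X-linked gene of the TCEAL family (chromosome X, 136168984 to 136172342), had 5.67, 6.45, 9.1 and 9.45 against 0, 0.117, 0.779 and 0 FPKM. Its difference was 2.84 at the 2-cell stage (SE 0.25, limma adjusted p = 0.000434), and at the 1-cell stage the same gene stood at 48 to 92.7 FPKM in mixed and at most 0.387 FPKM in B6 embryos. Both groups were separate at both stages. Kcnk18, a potassium channel gene, had 14.5, 18.1, 12.9 and 11.8 FPKM in mixed embryos and was listed at 0 in 3 B6 libraries, with 4.15 FPKM in B6 m+z+ replicate 1 (difference of 3.33 on the log2 scale, SE 0.44, limma adjusted p = 0.00486). Atrnl1, an attractin-like gene, measured 7.95, 5.06, 10.4 and 7.46 against 0.784, 0.569, 0.356 and 0.413 FPKM (2.48, SE 0.26, limma adjusted p = 0.00155).

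Another set was lower in mixed embryos, and some of it measured near 0 there. Reads of both arms were aligned to the mm10 genome, and how well reads of DBA alleles mapped to it was not tested for any gene. Manba, the gene of lysosomal beta-mannosidase (chromosome 3, 135485611 to 135571404, plus strand), had 0.23, 0.131, 0.407 and 0.402 FPKM in the mixed and 8.74, 11.4, 8.67 and 7.48 FPKM in the B6 libraries (difference of -2.95 on the log2 scale, SE 0.23, limma adjusted p = 0.000314). Ccdc3, which codes for a secreted coiled-coil protein, had 0.555, 0.103, 0.52 and 0.272 against 9.4, 9.31, 11.6 and 8.97 FPKM (-3.00, SE 0.23, limma adjusted p = 0.000314). The arms were far apart for both genes and tight within B6. Mfap2, Cdo1 and Ccdc109b were lower in mixed embryos but still measured in each of their libraries. Mfap2, a gene for a microfibril protein, had 5.11, 7.83, 11 and 17.4 against 80.1, 60.7, 90.6 and 63.9 FPKM (-2.82, SE 0.25, limma adjusted p = 0.000434). Cdo1, the gene of cysteine dioxygenase, had 31.7, 14.3, 17.8 and 24.8 against 71.5, 161, 149 and 105 FPKM (-2.40, SE 0.30, limma adjusted p = 0.00335). Ccdc109b, a regulator of the mitochondrial calcium uniporter, had 2.9, 1.39, 2.27 and 4.81 against 13.5, 23, 19.9 and 11.9 FPKM (-2.26, SE 0.31, limma adjusted p = 0.00622). A beta-defensin gene, Defb48, also passed (-2.76, SE 0.32, limma adjusted p = 0.00242), although reads of near-identical defensin copies may be shared. The RNA RP23-175A22.1 was listed at 0 in all 4 mixed libraries and at 2.98 to 7.91 FPKM in B6, and so was Mtif3, under an identifier not in the annotation used, at 1.54 to 5.45 FPKM in B6 (limma adjusted p = 0.00182 and 0.00491). At the 1-cell stage, however, Mtif3 had 4.69 to 14.94 FPKM in mixed and 5.12 to 10.04 FPKM in B6 libraries. In polyA RNA of m-z+ 2-cell embryos it went the other way, at 13.43, 27.75 and 30.05 FPKM in mixed against 17.5, 0 and 0 FPKM in B6.

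Other large differences were graded. Dhtkd1, a mitochondrial dehydrogenase of lysine breakdown, had 30.9, 31.4, 24.4 and 22.2 FPKM in mixed and 4.74, 2.08, 8.14 and 3.78 FPKM in B6 embryos (difference of 2.41 on the log2 scale, SE 0.31, limma adjusted p = 0.00399). Rgcc, a regulator of the cell cycle, ranged from 5.38 to 20.6 against 0.765 to 3.5 FPKM (2.05, SE 0.41, limma adjusted p = 0.0236). Ndufa12, an accessory subunit of respiratory complex I, had 5.34 to 10.2 FPKM in mixed embryos and 3.45, 0.395, 0 and 0 FPKM in B6 (2.37, SE 0.41, limma adjusted p = 0.0157). Smyd5, a SET-domain methyltransferase gene, had 10.8 to 17.1 against 1.19 to 6.54 FPKM (2.15, SE 0.35, limma adjusted p = 0.014). In each of these genes the arms did not overlap, but for Ndufa12 and Smyd5 B6 m+z+ replicate 1 came closest to the mixed range. Cd59b, a complement inhibitor gene, and the RNAs RP23-185M15.7 and RP23-145H8.2 were also among the 12 largest differences higher in mixed embryos, at 2.04, 2.81 and 2.04. Tecr, a reductase of very-long-chain fatty acid synthesis (-2.12), and Ccdc38 (-2.13) were among the 12 largest in the other direction.

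**Figure D1:**
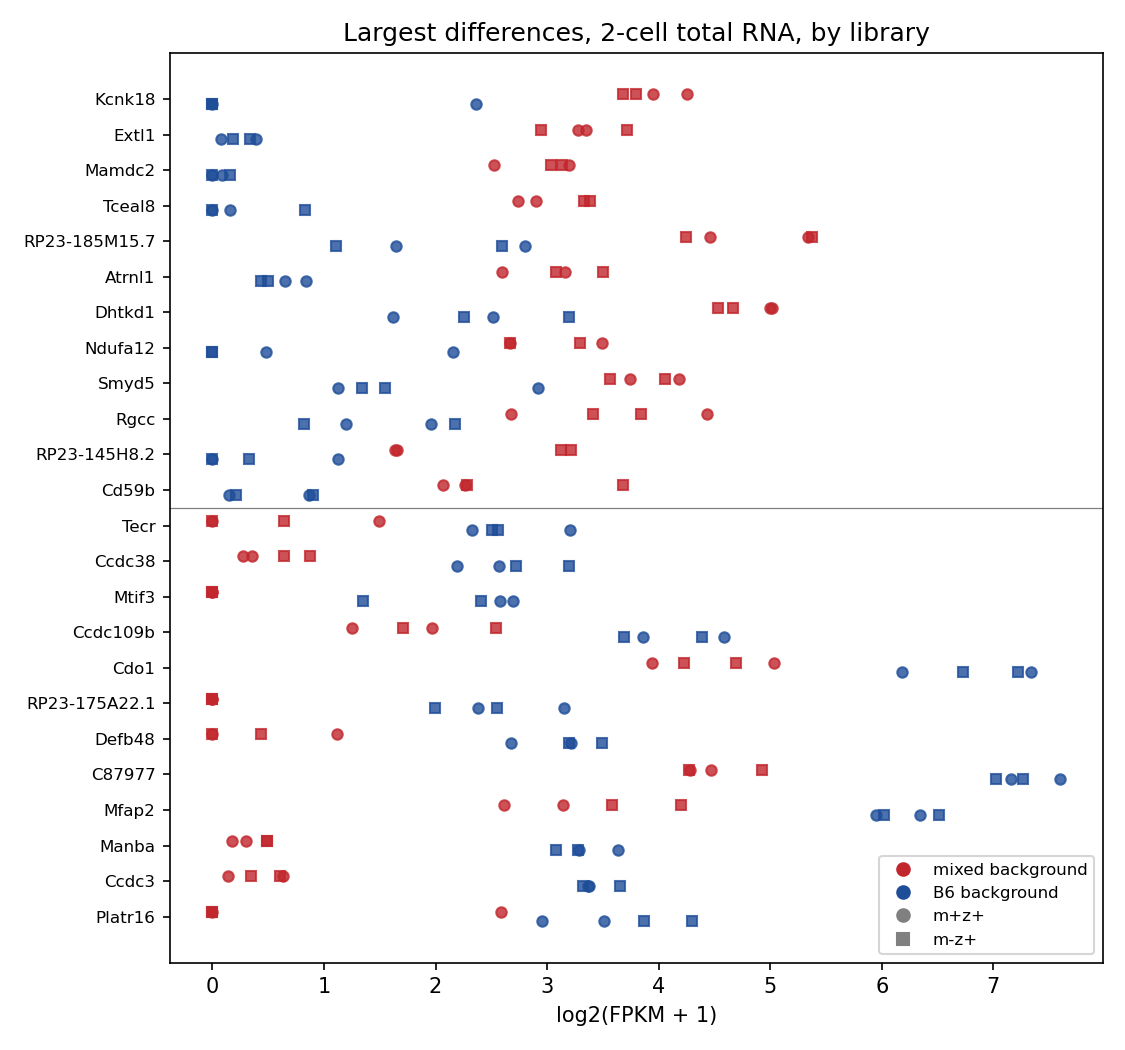
Each row is 1 gene and each point 1 2-cell total RNA library, with log2(FPKM + 1) on the x axis, red for mixed and blue for B6 embryos, circles for m+z+ and squares for m-z+. The 12 genes above the line are higher and the 12 below it lower in the mixed background, chosen as the largest differences among passing genes whose arms do not overlap, so the separation in each row is part of how they were chosen.

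Whether passing genes were spread evenly over the genome was not tested. The share passing ran from 5.53% to 10.8% over chromosomes 1 to 19 and X. On chromosome 3, the 2 Mb from 36000001 to 38000000 held 6 passing genes of 13 tested (46.2%), 2 higher and 4 lower. That window was picked after its values were seen. The 2 Mb of chromosome 4 from 144000001 to 146000000, singled out after its values were seen, held 9 passing genes of 28 tested, against 7.19% of all genes. In mixed embryos 8 of these 9 were lower. C87977, a gene of the Prame family that oocytes and early embryos express, had 18.4, 21.2, 18.4 and 29.4 against 142, 193, 153 and 129 FPKM (difference of -2.77 on the log2 scale, SE 0.19, limma adjusted p = 0.000314). Its relatives Oog3 (358.6 to 597.1 against 755.1 to 940.5 FPKM, -0.97), Oog2 (-1.16) and Pramef12 (-0.69) passed in the same direction. The gene models Gm13225 (-3.09), Gm13228 (-3.69) and Gm13212 (-1.60) and the noncoding RNA Platr16 (-3.01) did too, while Dhrs3, a retinal reductase gene, was higher (1.21). Many genes of this cluster are near-identical copies, and how the authors' counting divided reads among them is not known, so levels of single members are uncertain. Within 10 Mb of Dppa2 on chromosome 16, the mutated locus of the mixed arm, 7 of 53 genes passed (13.2%). B4galt4, Dppa4, Senp7, Trmt10c, Pcnp and Tmem39a were higher (0.92 to 1.43) and Gm608 was lower (-0.99). Dppa4 is the gene mutated in the B6 arm, so this window holds the mutated loci of both arms.

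Dppa4, the gene mutated in the B6 arm, was itself higher in the mixed arm. What part that mutation has in the difference was not tested. Dppa4 had 63.4, 58.3, 42.7 and 80.4 FPKM in mixed and 30.1, 17.6, 25.5 and 20.3 FPKM in B6 libraries (difference of 1.35 on the log2 scale, SE 0.23, limma adjusted p = 0.0143). The difference was 1.36 in controls and 1.33 in m-z+ embryos and did not pass in either genotype alone (limma adjusted p = 0.14 and 0.23). Dppa2, its neighbour and partner, had 44.8 to 59.2 against 44.1 to 49.5 FPKM (0.12, SE 0.14, limma adjusted p = 0.615).

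Other differences followed the stage class of the genes. Genes were classed by their change between 1-cell and 2-cell wild-type embryos in 4 polyA libraries labelled B6. None of the total RNA comparisons and no polyA test below compares these libraries, but the 2 from 2-cell embryos are among the 8 B6 libraries whose polyA ranges are given below. Of the genes, 3221 were activated (higher at the 2-cell stage, log2 change of at least 1), 1550 cleared (lower by as much) and 5480 flat. Of 2896 activated genes tested here, 274 passed as higher in mixed embryos and 12 as lower. Of 1296 cleared genes, 8 passed as higher and 162 as lower. Among all genes tested 4.05% passed as higher and 3.14% as lower. Flat genes were balanced, with 86 higher and 90 lower of 3325. The median difference was 0.36 for activated, -0.39 for cleared and 0.01 for flat genes, against 0.07 for all genes tested. Both genotypes showed it: 0.40 and -0.44 in controls, 0.33 and -0.32 in m-z+ embryos. The direction held under TPM scaling (0.26 and -0.53) and median-ratio scaling (0.29 and -0.47), and the medians stayed between 0.25 and 0.46 and between -0.45 and -0.29 when any 1 library was left out. The counts were less steady. TPM scaling gave 137 activated genes higher and 19 lower, and 4 cleared genes higher and 181 lower, and median-ratio scaling gave 250 and 27, and 7 and 215. Leaving out 1 library gave 16 to 491 activated genes higher and 1 to 14 lower, and 24 to 188 cleared genes lower and 2 to 8 higher.

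**Figure D2:**
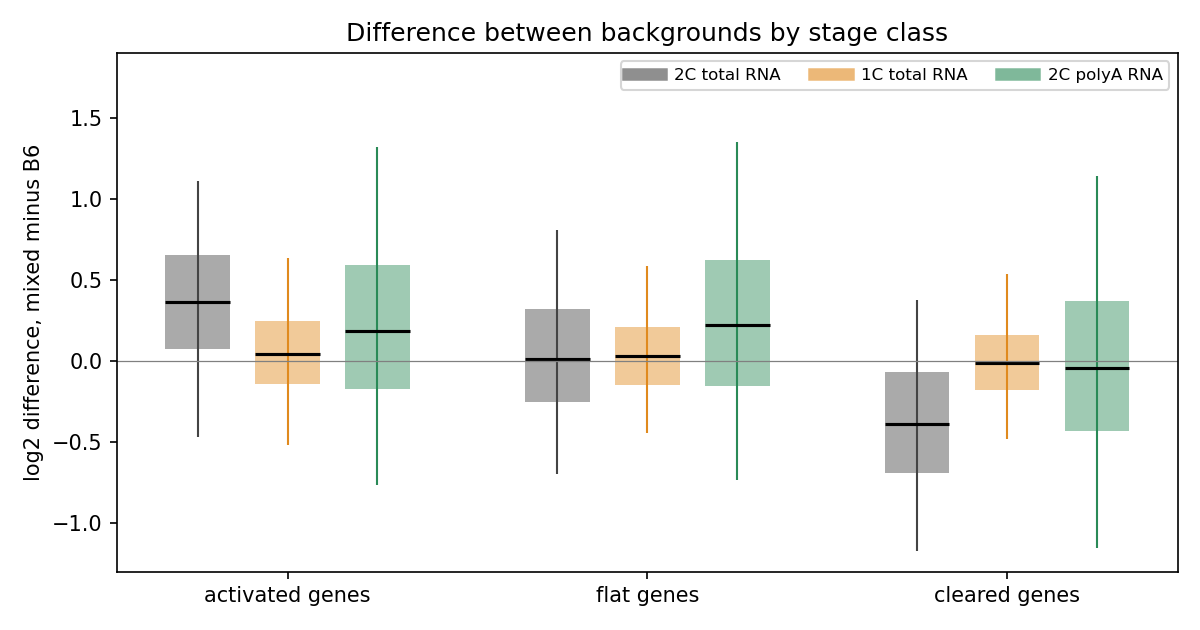
The y axis gives the log2 difference, mixed minus B6, for activated, flat and cleared genes, with black lines for medians, boxes for the middle 50% and whiskers for the 5th to 95th percentile of genes. Grey boxes (2-cell total RNA) move up for activated (median 0.36) and down for cleared genes (-0.39), orange boxes (1-cell total RNA) stay near 0, and green boxes (2-cell polyA RNA) have medians of 0.19, 0.22 and -0.05 for activated, flat and cleared genes.

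A stage score, the mean log2(FPKM + 1) of the activated genes less that of the cleared genes, put this in 1 value per library. It was 0.858, 0.610, 0.514 and 0.646 in the mixed and 0.320, -0.559, -0.126 and 0.0410 in the B6 libraries. All 4 mixed libraries scored above all 4 B6 libraries, with means of 0.657 ± 0.145 and -0.0808 ± 0.368 (SD, n = 4 each; difference 0.738, two-sided exact permutation test over 70 arrangements, p = 0.0286, the smallest it can give). B6 libraries were spread more widely than mixed ones, and B6 m+z+ replicate 2 stood lowest. Without it the difference was 0.578 (exact permutation p = 0.0286), and without any 1 mixed library the exact permutation p was 0.0571. At the 1-cell stage the scores ran from -3.16 to -3.07 in mixed and from -3.22 to -3.09 in B6 embryos, and their difference of 0.0417 was within the spread (exact permutation p = 0.314).

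**Figure D3:**
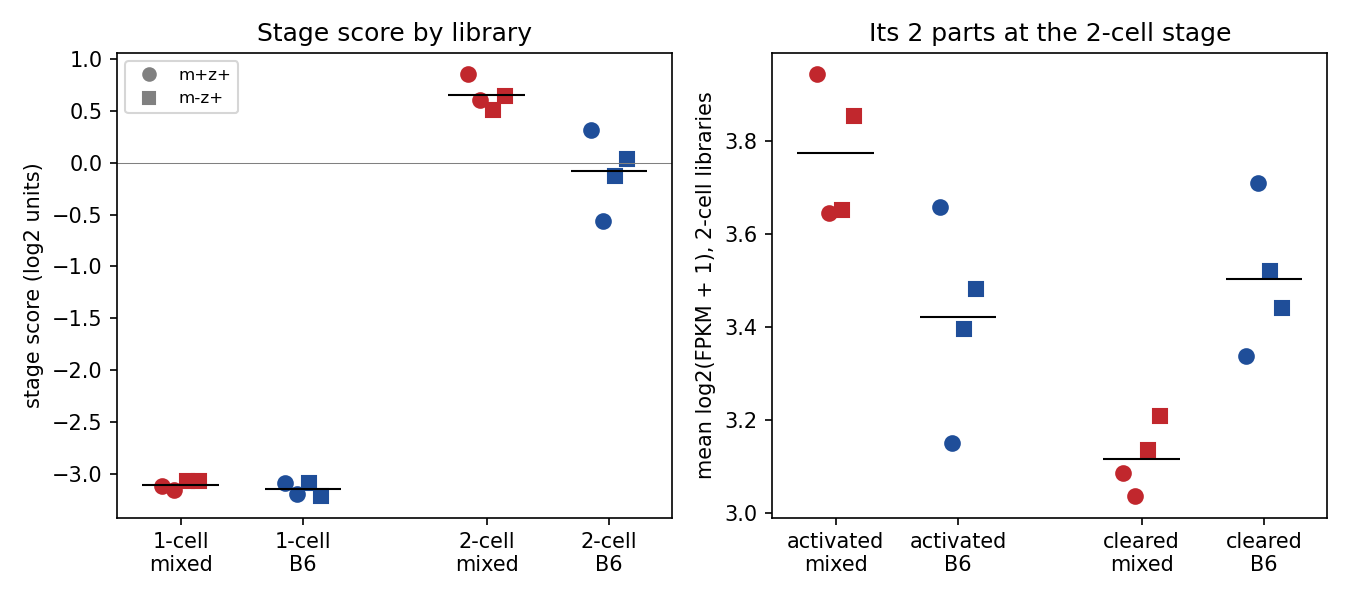
The left panel gives the stage score of each total RNA library at the 1-cell and 2-cell stage, and the right panel its parts at the 2-cell stage, the mean log2(FPKM + 1) of activated and of cleared genes. Points are libraries (circles m+z+, squares m-z+), lines are means of 4; the arms coincide near -3 at the 1-cell stage and separate at the 2-cell stage, where B6 m+z+ replicate 1 reaches the mixed range for activated genes.

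Named groups of genes showed both sides of this shift, read here against the 4.05% of all genes that passed as higher and the 3.14% that passed as lower. Some members are themselves classed as activated or cleared (Rps28 and Nlrp4f, for example), so these lists are not independent of the stage classes or the score. Ribosomal protein genes, which rise when the embryo begins to make its own ribosomes, were higher in mixed embryos in 20 of 79 cases (25.3%) and lower in none, with a median of 0.65 and a positive difference in 98.7% of them. Their summed level was 4760 to 5360 FPKM in the mixed and 2290 to 4180 FPKM in the B6 libraries, without overlap. Rps28 had 35.3, 41.8, 29.2 and 39.1 against 19.1, 10.3, 9.01 and 15.8 FPKM (difference of 1.41 on the log2 scale, SE 0.24, limma adjusted p = 0.014). Rpl34 (1.35), Rps7 (1.20) and Rpl27 (1.07) passed as well. Ribosome biogenesis genes were higher in 8 of 69 cases (11.6%) and lower in none (median 0.51), among them Bop1, a factor for the large ribosomal subunit, and Polr1b, a subunit of RNA polymerase I, at 1.29 and 1.24. Respiratory chain genes were higher in 12 of 67 cases (17.9%) and lower in none (median 0.43), with Uqcrb of complex III at 46.2, 31, 27.9 and 26.5 against 12.5, 5.85, 10.5 and 16.3 FPKM (1.51, SE 0.29, limma adjusted p = 0.0215). Ndufa13 (1.43) and Ndufa2 (1.35) of complex I were also higher. Splicing genes were higher in 7 of 51 cases (13.7%, median 0.44), with the Sm protein gene Snrpd2 at 1.09, and translation factors in 5 of 46 (10.9%, median 0.30), with Eef1g at 1.23 and the initiation factor genes Eif3m and Eif3e at 1.22 and 1.08. Of 42 proteasome genes 5 were higher, with the core subunit Psmb5 at 1.35, and 1 was lower. How many passed hung on the scaling. With TPM scaling 11 ribosomal protein, 2 ribosome biogenesis, 6 respiratory chain, 1 splicing, 2 translation factor and 3 proteasome genes were higher, and 1 translation factor and 1 proteasome gene were lower. With median-ratio scaling 18, 8, 12, 3, 4 and 4 genes of these lists were higher, and 1 translation factor and 2 proteasome genes were lower. The medians of all 6 lists stayed positive under both scalings. The count also hung on single libraries: 0 ribosomal protein genes passed without B6 m-z+ replicate 1, 2 without B6 m+z+ replicate 2 or mixed m-z+ replicate 2, 3 without mixed m+z+ replicate 1 or B6 m-z+ replicate 2, 6 without mixed m+z+ replicate 2, 12 without mixed m-z+ replicate 1 and 41 without B6 m+z+ replicate 1. Their median ran from 0.44 to 0.81 over these.

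Maternal transcripts went the other way. Of 48 tested, 18 were lower in mixed embryos and 1 was higher (39.6% passing, against 7.19% of all genes), with a median of -0.64 against 0.07 for all genes. The Nlrp genes, whose products belong to the oocyte's store of NOD-like proteins, led the list. Nlrp4f had 53.9, 85.2, 148 and 120 against 207, 445, 327 and 252 FPKM (difference of -1.62 on the log2 scale, SE 0.29, limma adjusted p = 0.0163). Nlrp9b (-1.70), Nlrp9a (-1.36) and Nlrp4a (-1.33) followed, although some Nlrp genes are close copies. In all 4 genes B6 m+z+ replicate 2 was the highest library, the one with the lowest stage score. All 4 are classed as cleared and enter that score, so the match is partly built in. Ooep, part of the subcortical maternal complex of the egg, was lower too (-1.09, SE 0.27, limma adjusted p = 0.0401). So were Uhrf1, which guides maintenance of DNA methylation (-1.03), Tet3, which oxidizes 5-methylcytosine after fertilization (-0.84), and the histone demethylase gene Kdm1b (-0.77). The acetyltransferase gene Kat2a was higher (0.81). Of 45 genes for DNA methylation and chromatin, which do not include Ooep, 1 was higher and 4 were lower, not all of them named here (11.1% passing, against 7.19% of all genes). The maternal median was -0.81 in controls and -0.34 in m-z+ embryos, and it ran from -0.70 to -0.51 when any 1 library was left out. The number of maternal genes that were lower was 18 without B6 m+z+ replicate 1, but 4 without B6 m-z+ replicate 1, 5 without mixed m+z+ replicate 1, 7 without B6 m+z+ replicate 2 or B6 m-z+ replicate 2, 9 without mixed m+z+ or m-z+ replicate 2 and 11 without mixed m-z+ replicate 1. It was 17 with TPM and 18 with median-ratio scaling.

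The 2-cell genes themselves hardly moved. Of 32 measured, 2 passed as higher (6.25%, against 7.19% of all genes passing in either direction), Dppa4 and the transcription factor gene Spz1 (44.2, 37.6, 28.3 and 44.2 against 22.3, 15, 23.2 and 16.9 FPKM, a difference of 0.96 on the log2 scale, SE 0.21, limma adjusted p = 0.0293), and the median was 0.02 (-0.06 with either TPM or median-ratio scaling). The summed level of all 33 found in the data overlapped, at 912 to 1130 FPKM in mixed and 965 to 1120 FPKM in B6 libraries. Of 7 Obox genes Obox5 was lower, at 123, 123, 276 and 149 against 247, 611, 348 and 361 FPKM (-1.22, SE 0.30, limma adjusted p = 0.0412), with mixed m-z+ replicate 1 inside the B6 range, and it did not pass with TPM scaling. Among preimplantation factors the zinc finger gene Zfp281 (1.64) and Tbx3 (0.73) were higher and Sox15 was lower (-1.12), of 28 measured. Imprinted genes gave 3 higher (Sgce at 1.22, Plagl1 at 1.15 and Snrpn at 0.77) and 1 lower (Trappc9 at -0.86) of 28, and the p53 response gave 2 higher, Aen at 1.33 and Pidd1 at 1.13, of 20. Heat shock genes gave 2 higher, the endoplasmic reticulum chaperone gene Hspa5 (0.97) and Hsf2 (0.88), and 1 lower, Dnajb1 at 15.9, 13.8, 17.7 and 15.8 against 31.8, 29.1, 36.3 and 33.5 FPKM (-1.0, SE 0.15, limma adjusted p = 0.00995), of 30. Cell cycle genes gave 1 higher, Cdk2 (0.69), and 2 lower, Cdc25b (-0.84) and the oocyte kinase gene Wee2 (-0.62), of 37. Of 18 genes of the integrated stress response Ppp1r15a was higher (0.99), and Atf3 (-0.91) and Mthfd2 (-0.54) were lower. Of 116 KRAB zinc finger genes 2 were higher and 3 lower, and of 13 mitochondrially encoded genes mt-Co3 was lower (-0.54). In these lists the shares passing were 10.7% for preimplantation factors, 14.3% for imprinted genes, 10% for the p53 response and for heat shock, 8.11% for the cell cycle, 16.7% for the stress response, 4.31% for KRAB zinc fingers and 7.69% for mitochondrially encoded genes, against 7.19% of all genes, and all but the KRAB list rest on 1 to 4 genes. Scaling moved several of the counts. Imprinted genes gave 1 higher and 1 lower with TPM or median-ratio scaling, and KRAB zinc fingers gave 0 higher and 3 lower with TPM and 2 and 6 with median-ratio scaling. With TPM scaling no heat shock, cell cycle or chromatin gene was higher, and 1 preimplantation factor was higher and 1 lower.

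Lists that might mark the strains or other cells gave few calls. None of 12 MHC class I genes passed, H2-Q6 and H2-Q7 having the largest differences (1.10 and 0.97, limma adjusted p = 0.121 and 0.108), and none of 4 genes with known strain alleles passed, Glo1 and Gpnmb differing by -0.56 and -0.52. Of 9 interferon and Trim genes Oas1c, an oocyte member of its family, was lower (13.3, 14.8, 18.4 and 18.9 against 33.5, 66.2, 59.9 and 39.6 FPKM, -1.51, SE 0.23, limma adjusted p = 0.00995). None of 7 Y-linked genes tested passed, but 100% of their differences were positive (median 0.42, with 0.34 in controls and 0.54 in m-z+ embryos). Their polyA median was 1.13. The sums over all 8 listed were 18 to 26.5 and 8.59 to 22.7 FPKM, and only B6 m-z+ replicate 2 (22.7 FPKM) reached the mixed range. Markers of cumulus and granulosa cells (3 tested) and of blood (3 tested) gave no call. Sums over all 12 listed cumulus and granulosa markers were 6.64 to 11.3 and 7.29 to 11.3 FPKM. For all 10 listed blood markers they were 4.92 to 14.9 and 6.40 to 10.8 FPKM. Of 5 sperm transcripts Odf2 was lower (-0.64). Early embryo markers were present in every library, with sums of 908 to 1200 and 982 to 1170 FPKM over 8 genes.

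**Figure D4:**
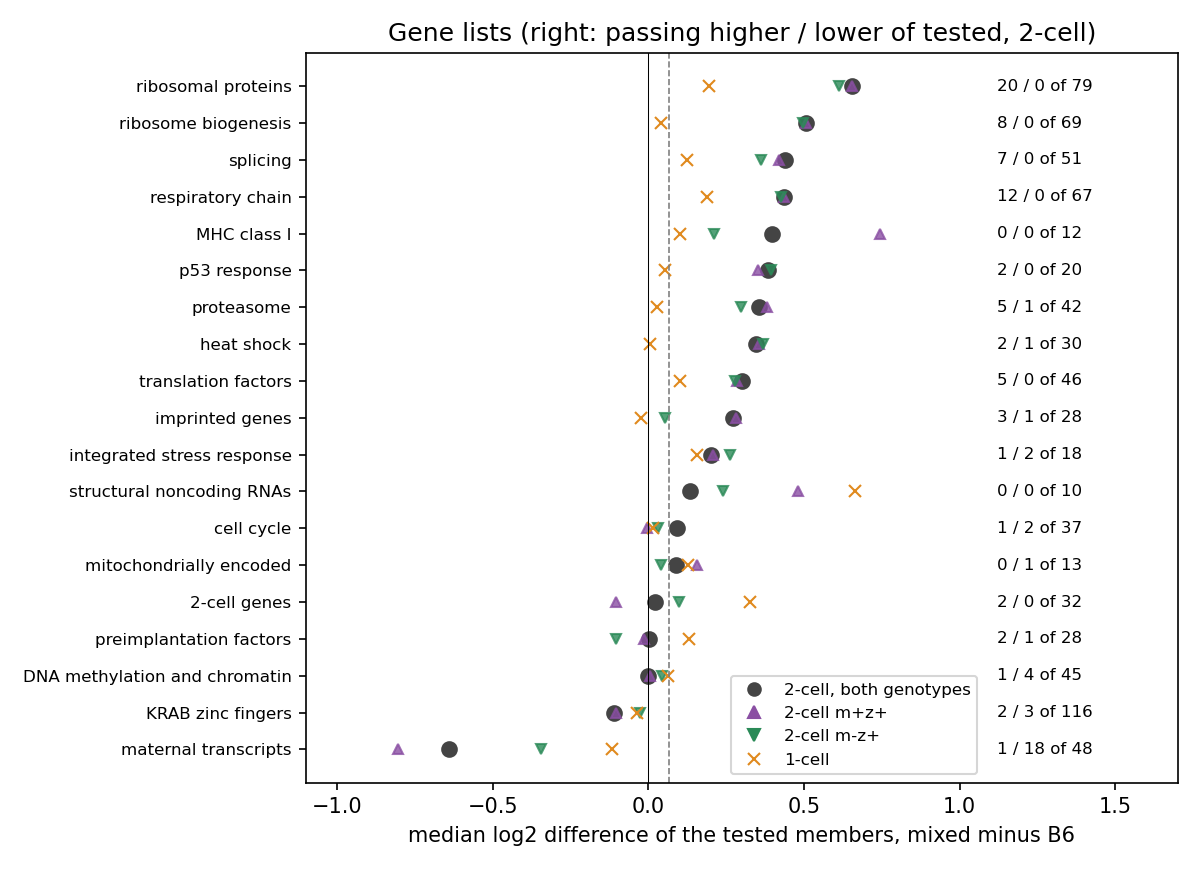
Each row is a gene list with at least 10 members tested, and the x axis is the median log2 difference of those members, mixed minus B6, in all 2-cell libraries (black), in m+z+ (triangles up), in m-z+ (triangles down) and at the 1-cell stage (crosses); the dashed line is the 2-cell median of all genes, 0.07. Ribosomal proteins stand at 0.65 and maternal transcripts at -0.64 at the 2-cell stage, and the 1-cell medians of these lists are 0.19 and -0.12.

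The 1-cell libraries of the same arms, 12 hours after fertilization, show which differences were already measured before most genome activation. At that stage 1405 of 11810 genes (11.9%) differed between backgrounds, 868 higher and 537 lower in mixed embryos. The count fell to 896, 854 and 890 without B6 m+z+ replicate 1 or B6 m-z+ replicates 1 or 2. Of the 1003 genes passing at the 2-cell stage 867 were measured at the 1-cell stage, 648 of them with the same sign (74.7%, against 59.5% of 10827 genes tested at both). At both stages 244 passed, 231 with the same sign (117 higher and 114 lower). Those 231, of 10827 genes tested at both stages, held 36 of 1810 activated, 44 of 1292 cleared and 64 of 2861 flat genes. The 13 with opposite signs included Rps26, higher at the 2-cell stage (0.94) and lower at the 1-cell stage (-0.34), and Kpna7, an oocyte importin gene, with -1.03 and 0.59. Over all genes of each class measured at the 1-cell stage, passing or not, the median there was 0.04 for activated and -0.01 for cleared genes. Of the 24 largest 2-cell differences 19 were measured at the 1-cell stage and 15 passed there with the same sign, including Extl1 (3.31), Kcnk18 (3.44), Mamdc2 (2.25), Atrnl1 (2.31), Dhtkd1 (2.36), Manba (-3.39) and Ccdc109b (-3.19). Ndufa12 (-0.13), Smyd5 (0.23) and Tecr (-0.27) did not pass there, with limma adjusted p = 0.69, 0.47 and 0.10.

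The change of the difference between stages was then tested itself. Over both stages 514 of 15068 genes (3.41%) passed, 216 with a larger mixed minus B6 difference at the 2-cell stage and 298 with a smaller one. It is a count that moved with single libraries: 90 to 157 without any 1 of the 8 1-cell libraries, 177 or 202 without B6 2-cell m-z+ replicate 1 or m+z+ replicate 2, 809 without mixed 2-cell m+z+ replicate 2 and 1519 without B6 2-cell m+z+ replicate 1. Of the 1003 genes passing at the 2-cell stage 287 were among the 514. They held 69 of the 286 activated, 64 of the 170 cleared and 42 of the 176 flat genes that passed at the 2-cell stage. The 2-cell libraries that chose the 1003 genes also enter this test. That choice favours the overlap, and a larger later difference in genes named for their 2-cell difference. B4galt4 (1.43 at the 2-cell stage, 2.98 at the 1-cell stage) and Tceal8 (2.84 and 5.91) had smaller differences later. Mfap2 (-2.82 and -0.84), Ccdc3 (-3.00 and -1.18) and C87977 (-2.77 and -1.42) were further apart later.

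**Figure D5:**
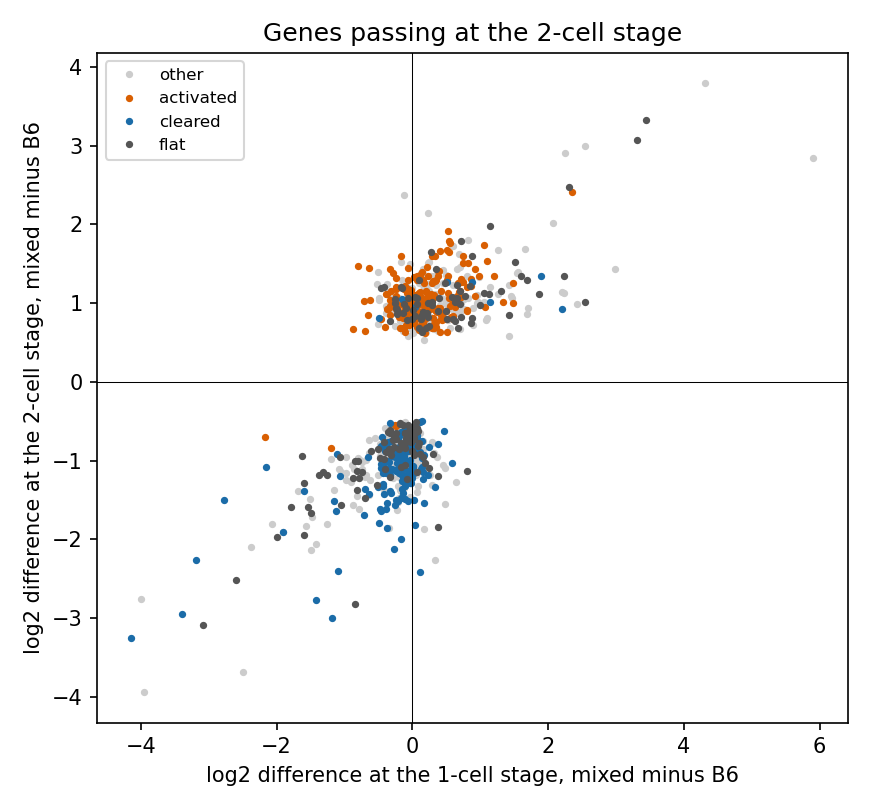
Each point is a gene that passed at the 2-cell stage and was measured at the 1-cell stage (867 genes), with the log2 difference, mixed minus B6, at the 1-cell stage on the x axis and at the 2-cell stage on the y axis. Activated genes (orange) lie mostly above 0 and cleared genes (blue) mostly below 0 on the y axis. Most of them lie closer to 0 on the x axis, but 36 activated and 44 cleared genes passed at the 1-cell stage with the same sign. Large 2-cell differences lie both near the diagonal (Extl1 at 3.31 and 3.08, Manba at -3.39 and -2.95 at the 1-cell and 2-cell stage) and far from it (Ndufa12 at -0.13 and 2.37). The gap around 0 on the y axis follows from the choice of passing genes.

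Single-embryo polyA libraries, other embryos of the same lines, gave a separate look at m-z+ embryos at 28 hours (3 mixed, 3 B6). There 22 of 17723 genes passed (0.124%), 9 higher and 13 lower in the mixed background, and 5 without B6 replicate 3. Of these 22, 14 were measured in 2-cell total RNA, all 14 with the same sign, and 5 passed in both. Over all genes 61.4% of 12904 had the same sign. The activated genes had a polyA median of 0.19 and the cleared genes of -0.05, against 0.18 for all genes measured in both, so activated genes stood no higher than the rest there while cleared genes stood lower. Over all 2-cell polyA libraries, 6 mixed and 8 B6 with wild-type and m-z- embryos included, 24 of 982 genes passing in total RNA (2.44%) did not overlap in the same direction, against 90 of 12906 genes (0.697%). Among the 24 largest differences these were Atrnl1, Dhtkd1 and C87977, while Extl1, Kcnk18, Manba and Tceal8 overlapped. Median FPKM in the mixed and B6 polyA libraries was 1.64 and 1.51 for Extl1 and 2.36 and 2.51 for Kcnk18. It was 0.762 and 1.02 for Manba and 0.0381 and 1.23 for Tceal8. Tceal8 ranged from 0 to 141 FPKM within the mixed polyA libraries.

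Lyplal1, B4galt4 and Gm13228 passed in the 2-cell, the 1-cell and the polyA comparison with the same sign. Lyplal1, a lysophospholipase-like gene (chromosome 1, 186087731 to 186117310, minus strand), had 5.44, 7.47, 15.2 and 6.57 FPKM in mixed and 2.69, 3.13, 2.34 and 2.23 FPKM in B6 2-cell libraries (difference of 1.33 on the log2 scale, SE 0.29, limma adjusted p = 0.03). All mixed values were higher, and so they were at the 1-cell stage, at 19.7 to 22.5 against 4.4 to 5.65 FPKM (difference 1.9), and in polyA RNA, at 25.1 to 44.3 against 2.23 to 9.13 FPKM. B4galt4, a galactosyltransferase gene that starts at 38742264 on chromosome 16 (Dppa2 at 48303908), had 15.7, 21.3, 22.9 and 24.1 against 6.13, 7.38, 10.6 and 5.06 FPKM (1.43, SE 0.23, limma adjusted p = 0.0136). In polyA RNA it had 42.2 to 177 against 2.5 to 19.9 FPKM. Calhm3, a calcium-regulated ion channel gene, was listed at 0 in all 4 mixed 2-cell libraries and at 0.608, 3.94, 0.553 and 4.05 FPKM in B6, without passing (limma adjusted p = 0.0599). In polyA RNA it was listed at 0 in all 6 mixed libraries and stood at 26.9 to 115 FPKM in all 8 B6 libraries, and it passed there (limma adjusted p = 1.2e-05). Lyplal1 and Calhm3 were chosen for this pattern, so these values describe it.

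Background and stage score could be taken apart only in part. With the stage score of each library added to the fit, 0 genes passed for background (limma; 285 of the 1003 kept their sign with an unadjusted p under 0.05). The sign was kept by 998 of the 1003. The median difference became -0.08 for activated, -0.10 for cleared, -0.05 for flat and -0.07 for all genes, and -0.17 for maternal transcripts, while ribosomal protein genes stood at 0.00. The score is built from the activated and cleared genes of these same libraries, so that with it in the fit the mean differences of both classes must be equal, and the loss of the gap between them is no result. It also separates the arms without overlap, so 8 libraries leave little to tell background from score by. With the score in the fit, an unadjusted p under 0.05 (limma) remained for 74 of the 176 flat genes that passed without it. For activated genes it remained for 44 of 286, and for cleared genes for 44 of 170. All these genes were chosen as passing in the same libraries, and the score is built from the activated and cleared genes. No conclusion is therefore drawn from these shares or from the kept signs.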

How the data were processed

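The authors deposited FPKM values, 1 per gene and library, in separate tables for total RNA and polyA RNA. Per the submitters' processing notes they used HISAT2 2.1.0, StringTie 1.3.3b and the mm10 genome. The sources used here do not name the authors' gene annotation, their filters or whether fragments were counted by strand. Per the labels' protocols a stranded SMARTer kit made the total RNA libraries and a SMARTer Ultra Low Input kit with Nextera XT the polyA ones, so in total RNA reads of a gene and its antisense partner may or may not have been separated. The stage score's test was an exact permutation test. Library depth is unknown, as the tables hold no counts. Positions come from GENCODE M21 on mm10, which held 98.2% of the gene identifiers.

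Values were turned into log2(FPKM + 1), and a gene was tested where 2 or more libraries of a fit reached 1 FPKM. Each fit used limma 3.58.1 (R 4.3.3, statmod 1.5.0; trend and robust options) with two-sided tests, p-values adjusted by Benjamini-Hochberg over all genes tested, and 0.05 as the threshold. Differences are mixed minus B6 and understate the change of low genes. The differences within m+z+ and within m-z+ embryos came from 1 fit of the 8 2-cell libraries with a mean per group and a shared spread. The 2-cell and 1-cell fits had 8 libraries each with maternal genotype as covariate, the change between stages came from all 16 total RNA libraries, and the polyA contrast from the 2-cell polyA libraries of both arms, in which the m-z- libraries only lend their spread. Activated, cleared and flat genes came from polyA libraries of wild-type 2-cell and 1-cell embryos (2 each, in a fit of all 16 polyA libraries); activated and cleared genes passed with a log2 change of at least 1 in size, and flat genes changed by less than 0.5 with an unadjusted p of at least 0.05. The tests were checked on simulated data.

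The 8 libraries, the gene lists and the rule for named genes were chosen with earlier results of these data known. Named were the 12 largest passing differences in each direction without overlap and without predicted gene models, up to 8 genes per direction passing in the 2-cell, 1-cell and polyA comparisons, Lyplal1, Calhm3, Dppa2 and Dppa4, up to 4 passing members of each list (or 2 where none passed), and the 4 largest activated and cleared genes. Genes named in other places were chosen after their values were seen. Alternatives were a pseudocount of 0.1, no filter, TPM and median-ratio scaling, each library left out in turn, a replicate block, no genotype covariate, all 16 libraries in 1 fit and the stage score as covariate.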

Additional observations from a re-analysis of the deposited data

Results flagged for a closer look

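Among 34 quantities (the stage score, the FPKM total and the FPKM of 32 named genes), each looked at in both arms of 4 libraries, 7 had 1 library far from the other 3 by Dixon's criterion at the 95% level. Chance alone flags about 1 in 20 of such groups. For Kcnk18, B6 m+z+ replicate 1 had 4.15 FPKM while the other 3 B6 libraries were listed at 0. The same library had 3.45 FPKM of Ndufa12, where the other 3 had at most 0.395, and 6.54 FPKM of Smyd5, where they had at most 1.93. B6 m-z+ replicate 1 had 0.779 FPKM of Tceal8 against at most 0.117 in the other 3, and 11.6 FPKM of Ccdc3 against at most 9.4. In the mixed arm, m-z+ replicate 1 had 11.8 FPKM of Cd59b against at most 3.86 in the other 3, and m+z+ replicate 1 had 5.01 FPKM of Platr16, which was listed at 0 in the other 3.

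The background difference itself differed between the stages for 514 genes (limma, Benjamini-Hochberg adjusted p under 0.05), 14 of them among the named genes. The 2-cell difference less the 1-cell difference was positive on the log2 scale for RP23-185M15.7 (2.81), Ndufa12 (2.5), RP23-145H8.2 (2.04), Smyd5 (1.92), Dppa2 (1.63) and RP23-205G9.1 (1.24). It was negative for Tceal8 (-3.07), Platr16 (-2.73), Mtif3 (-2.59, under the identifier that the annotation lacks), Mfap2 (-1.98), Tecr (-1.85), Ccdc3 (-1.82), B4galt4 (-1.55) and C87977 (-1.35). Dppa2 is the gene mutated in the mixed arm. At the 1-cell stage it stood at 9.38 and 9.52 FPKM in the mixed m-z+ libraries, at 32.3 and 32.7 FPKM in the mixed controls and at 47.7 to 60.2 FPKM in B6 libraries, so maternal genotype moves with its difference between stages.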

How the results depend on the processing

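Depth is unknown, so the counting error of low values could not be set beside the spread between libraries. With a pseudocount of 0.1, 2 genes passed in m-z+ embryos and 297 in the change between stages. Without a filter on low values, where 26277 genes are tested at the 2-cell stage, 76 genes passed at the 2-cell stage, 0 in controls, 0 in m-z+ embryos (where limma gave 2369 and 1868 at an unadjusted p under 0.05 with the filter), 619 at the 1-cell stage and 208 in the change between stages. TPM scaling gave 264 genes for the change between stages and a cleared-gene median of -0.528. With all 16 total RNA libraries in 1 fit, 3191 genes passed at the 2-cell stage, and with a log2 size of at least 1 asked for, 545. With the stage score as covariate 0 passed in limma (285 with the sign kept at an unadjusted p under 0.05), the activated median turned to -0.0829, the cleared median was -0.103, and Noc2l, at 1.27 without it, turned to -0.0548.

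Leaving out 1 library at a time gave 123 to 1308 genes at the 2-cell stage, 4 to 117 in controls, 0 to 23 in m-z+ embryos, 0 to 3 for the dependence on maternal genotype, 854 to 1214 at the 1-cell stage, 90 to 1519 for the change between stages and 5 to 24 in polyA RNA. The stage score difference ran from 0.578 to 0.871. The stage score is built from the activated and cleared genes, so as a covariate it makes their mean differences equal, and the turned sign of the activated median follows from that construction. None of the other alternatives turned the sign of either median.

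Replicate numbers did not pair the libraries, since same-numbered libraries did not deviate together (r from -0.15 to 0.083 at the 2-cell and from -0.014 to 0.12 at the 1-cell stage, across genes). With a replicate block 818 genes passed at the 2-cell and 1236 at the 1-cell stage. Of the 89 named genes that passed, 69 lost their call without the filter, 7 to 61 when 1 library was left out, and 88 with the stage score as covariate, besides Noc2l. The call was lost by 14 with the block, 11 with the pseudocount of 0.1, 19 with TPM scaling and 6 with median-ratio scaling.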

Other observations

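Replication-dependent histone genes, grouped after their values were seen, were higher in mixed 2-cell embryos in 17 of 70 cases and lower in 1 (25.7% passing, against 7.19% of all genes), with a median of 0.55 against 0.07 for all genes. The H2A genes Hist1h2ae (1.05), Hist1h2aj (0.90) and Hist1h2ap (1.09) were among the higher ones, and reads of such near-identical copies, some annotated as pseudogenes, may be shared. With TPM scaling 7 were higher and with median-ratio scaling 13. Without mixed m+z+ replicate 1, B6 m+z+ replicate 2 or B6 m-z+ replicate 2 there were 4, without B6 m-z+ replicate 1 there were 6, and without mixed m+z+ replicate 2, m-z+ replicate 1 or m-z+ replicate 2 there were 7, 8 and 10. Their summed level overlapped between arms, at 4107 to 6879 FPKM in the mixed and 3455 to 5197 FPKM in the B6 libraries. At the 1-cell stage their median was 0.38, with 29 of 64 passing in either direction. In polyA RNA, which does not capture most histone transcripts, it was -0.10.

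Genes for mitochondrial ribosomal proteins, grouped in the same way, were higher in 6 of 73 cases and lower in none at the 2-cell stage (8.22% passing, near the 7.19% of all genes; median 0.35), against a median of 0.05 at the 1-cell stage, and no gene of the group passed at both stages with the same sign. Of the 15 Nlrp genes 6 were lower and none higher (40% passing; median -0.63), and 4 of them are named above among the maternal transcripts. Long intergenic noncoding RNAs passed in 33 of 294 cases (11.2%), 19 higher and 14 lower, and small nucleolar RNAs in 2 of 226 (0.885%), against 7.19% of all genes.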
